A study of Mus musculus with 9 samples.

Results

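The retinoid synthesis, uptake, binding, breakdown and receptor genes Aldh1a2, Dhrs3, Stra6, Crabp1, Crabp2, Cyp26a1, Rara, Rarb and Rarg, 9 in all, were taken by name from the 48440 genes of each count table. Gene identifiers were mapped to symbols, and all 9 were found. Of these, 7 had enough counts to be tested, while Cyp26a1 and Stra6 did not. The libraries are polyadenylated RNA from J1 mouse embryonic stem cells in which Suz12, needed by the Polycomb enzyme PRC2 to methylate histones, carries an auxin-inducible degron (Suz12-AID), so that auxin leads to loss of the protein. There were 3 groups of 3 biological replicates, and the Suz12-AID genotype and the medium were common to all. Mock cells were the control, with no further detail in the labels, Auxin cells had 50 µM indole-3-acetic acid for 96 h, and Re-introduction cells had the same followed by a washout of 4.5 h. The medium held fetal bovine serum, leukemia inhibitory factor and the kinase inhibitors PD0325901 and CHIR99021, and no retinoid is among its listed additions. How many clones of the tagged line were used is not given in the sources used here.

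Retinoic acid is made from vitamin A. Retinol enters cells in part through Stra6, is oxidised to retinal and then, by Aldh1a enzymes, to retinoic acid. Crabp proteins hold retinoic acid in the cytoplasm, Cyp26 enzymes break it down, and the nuclear receptors Rara, Rarb and Rarg, paired with Rxr partners, bind retinoic acid response elements in target genes. Retinoic acid is a classical inducer of differentiation in mouse embryonic stem cells, and Cyp26a1, Rarb, Dhrs3, Stra6 and Crabp2 are known among the genes it induces.

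The best known of these response elements is a direct repeat of a 6-base unit with a 5-base spacer (DR5), and the starts of Rarb and Cyp26a1 are textbook cases. The stretches of 250 bases before the start of these genes are shown because Rarb was called higher in Auxin and Cyp26a1 had 2 to 12 counts per library. Crabp1 is shown beside them as the gene with the largest fall. The sequences are from RefSeq (GRCm38.p6), read 5′ to 3′ on the gene's strand, with a DR5 element in capitals.
Rarb (chr14:16575477-16575726, minus strand): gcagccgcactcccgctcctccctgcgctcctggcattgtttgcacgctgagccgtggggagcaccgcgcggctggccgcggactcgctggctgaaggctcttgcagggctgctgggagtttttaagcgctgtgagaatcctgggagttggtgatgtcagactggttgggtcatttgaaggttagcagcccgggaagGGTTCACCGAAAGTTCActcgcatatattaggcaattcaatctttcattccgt
Cyp26a1 (chr19:37697558-37697807, plus strand): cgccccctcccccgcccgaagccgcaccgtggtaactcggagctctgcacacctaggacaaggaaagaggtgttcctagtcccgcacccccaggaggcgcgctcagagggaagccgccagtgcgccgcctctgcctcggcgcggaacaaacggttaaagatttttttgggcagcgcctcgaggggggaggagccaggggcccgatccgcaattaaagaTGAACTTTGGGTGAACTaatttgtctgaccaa
Crabp1 (chr9:54764498-54764747, plus strand): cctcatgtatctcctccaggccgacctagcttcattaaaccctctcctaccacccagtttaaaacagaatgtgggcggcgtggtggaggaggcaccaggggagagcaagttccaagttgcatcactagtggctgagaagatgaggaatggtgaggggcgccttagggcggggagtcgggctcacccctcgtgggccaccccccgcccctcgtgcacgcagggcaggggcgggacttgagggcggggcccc
On the strand that reads as a direct repeat, with the repeated units in capitals, the elements are as follows.
Rarb element: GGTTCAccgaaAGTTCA
Cyp26a1 element: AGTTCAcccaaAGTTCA
They share the second unit, and the Cyp26a1 element lies on the strand opposite to the gene.

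The search used the unit AGGTCA, the variant AGTTCA, the variant GGGTCA and the variant GGTTCA in any pairing, on both strands, in windows of 300 bases (250 before to 50 after a start). A DR5 element stood in 32 of 32851 windows (0.0974%), and in 17 windows of 8 of the 9 genes it was found only in those of Rarb and Cyp26a1. The units searched include those of these known elements, so the matches there were fixed by the choice of units and test nothing. The same units with a 2-base spacer (DR2) stood in 0.268% of all windows and in 0 of the 17. Crabp2 had no entry in the table. A match of letters is not a measured binding site, and a window without one says nothing about elements elsewhere. Observed over expected CpG was 0.696 for Rarb, 0.894 for Cyp26a1, 1.11 for Aldh1a2, 0.543 for Crabp1 and 0.594 to 0.824 for Dhrs3, all above the median window (0.384). It was 0.198 to 0.609 for Rara and 0.335 to 0.504 for Rarg, on both sides of that median, and 0.184 to 0.365 for Stra6. Of the 31 genes with a DR5 window, 15 were in the count tables and 7 were tested. In Auxin against Mock, 3 of these 7, Rarb among them, rose and 2 fell, a share near the 73.2% of all genes called.

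Each library held between 44341283 and 113931419 counts. Mates of a pair were counted separately, so the number of independent fragments is lower. Correlations of log2 CPM (read counts scaled to a common library size with TMM factors) were 0.989 to 0.995 within groups and 0.936 to 0.977 between groups. Suz12 mRNA, which the degron does not act on, lay between 122 and 152 CPM in Mock and Auxin and between 164 and 173 in Re-introduction. It was called higher in Re-introduction against Mock (log2 0.33) and against Auxin (0.25). Values also followed exon length: per doubling they changed by -0.25 to -0.17 log2 units in the Mock libraries, 0.15 in Auxin replicates 1 and 3, 0.01 in Auxin replicate 2 and 0.08 to 0.10 in the Re-introduction libraries. Auxin replicate 2 thus stood apart from its group. The mitochondrial share of counts was 3.79% to 3.999% in Mock and Auxin and 4.58% to 4.80% in Re-introduction, and its part in the results was not tested. All 10 embryonic stem cell markers listed, such as Pou5f1 and Nanog, passed the filter on low counts, with a summed level of 5843 to 5999 CPM in Mock, 7005 to 7546 in Auxin and 5623 to 5730 in Re-introduction. In Auxin against Mock 6 rose and 3 fell, beside 38.4% and 34.8% of all genes. Those that fell were Pou5f1 (log2 -0.53), Utf1 (-1.03) and Dppa5a (-1.16).

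Auxin was set against Mock for the effect of losing Suz12. Exposure to auxin and loss of the protein, which was not measured here, cannot be told apart. Of the 7 genes tested, 5 were called at an adjusted p under 0.05. Rarb was higher, and Crabp1, Crabp2, Rara and Rarg were lower. Across all 20838 genes tested, 73.2% were called, 38.4% higher and 34.8% lower, so that calls were common everywhere. Of all calls 52.4% were higher, and 63.3% under scaling by library totals, which moved the median of all genes from 0.05 to 0.26. With at least a 2-fold change as well, Crabp1, Crabp2 and Rarb stayed, where 31.8% of all genes did. The median log2 fold change of the 7 was -0.23, against 0.05 over all genes tested.

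**Figure D1:**
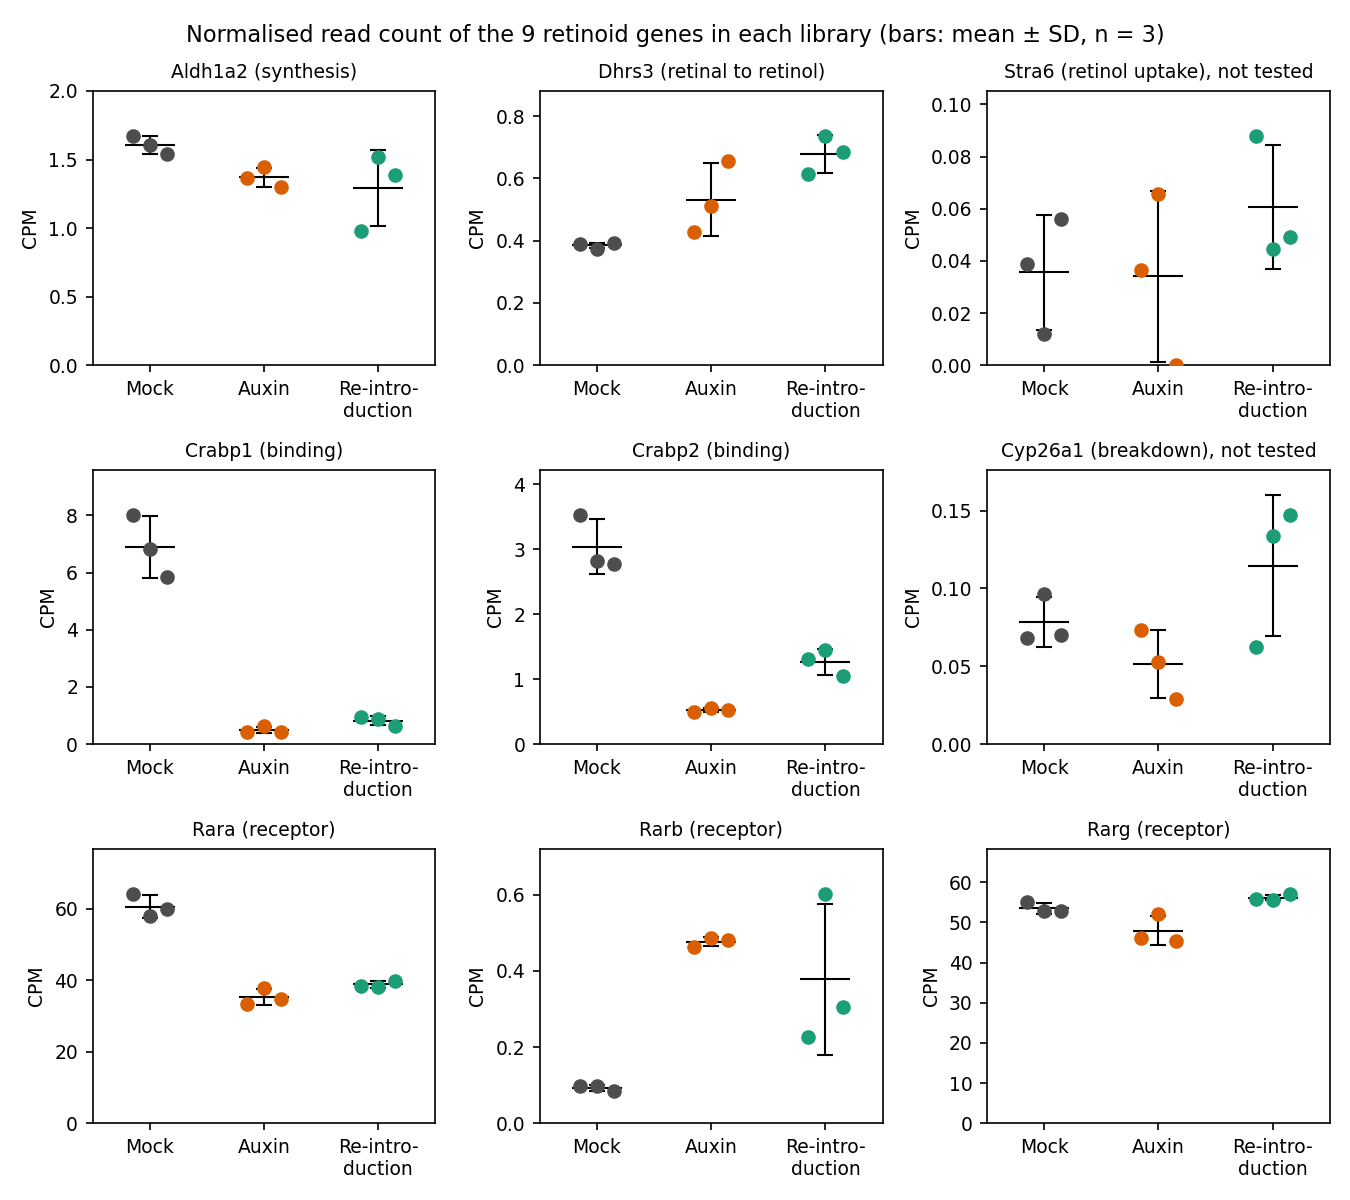
Normalised read count (CPM, linear axes from 0) of each of the 9 retinoid genes in the 3 libraries of each group, with each library as a point and bars for mean ± SD. Crabp1 and Crabp2 were high in Mock only, Rarb was lowest in Mock, Rara was highest in Mock, and Cyp26a1 and Stra6 stayed below 0.15 CPM in every library.

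The binding proteins fell most. All gene coordinates given here are on mm10. Crabp1 (ENSMUSG00000032291.8, chr9:54764748-54773110, 802 bp of exon) encodes a cytoplasmic carrier of retinoic acid that is linked to its turnover. It had 825, 567 and 418 counts in Mock replicates 1 to 3, or 8.01, 6.84 and 5.85 CPM. In Auxin it had 0.427, 0.630 and 0.438 CPM (35, 48 and 30 counts), and in Re-introduction 0.954, 0.891 and 0.637 CPM. The 3 groups did not overlap, with all Auxin libraries lowest. Auxin against Mock gave a log2 fold change of -3.79 (SE 0.20, edgeR quasi-likelihood test, adjusted p = 1.75e-08), 13.8-fold lower, and in Re-introduction against Mock it was -3.07 (SE 0.19, adjusted p = 1.53e-07). Fewer cells expressing a gene and less RNA per cell cannot be told apart in these bulk libraries.

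Crabp2 (ENSMUSG00000004885.5, chr3:87948666-87953376, 1322 bp of exon) encodes the carrier known to bring retinoic acid to its receptors in the nucleus. Its values were 3.52, 2.81 and 2.77 CPM in Mock, 0.488, 0.564 and 0.526 CPM in Auxin, and 1.30, 1.45 and 1.04 CPM in Re-introduction. Again no library of one group reached another group. Auxin against Mock gave -2.53 (log2, SE 0.17, adjusted p = 1.38e-07), 5.78-fold lower. In Re-introduction against Mock the difference was -1.28 (SE 0.16, adjusted p = 2.72e-05).

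Both carriers have short transcripts, and short genes were lower in Auxin as a class. Protein-coding genes of 642 to 1002 bp had a median log2 fold change of -0.37 in Auxin against Mock (389 genes), with a 5th percentile of -2.22, and Crabp1 lay below that. For 1058 to 1652 bp the median was -0.32 and the 5th percentile -1.80 (1122 genes), and Crabp2 lay below that. With the length and GC trends of each library removed, the changes were -3.29 for Crabp1 and -2.24 for Crabp2, and both stayed called.

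After washout both carriers were higher than in Auxin. In Re-introduction against Auxin, where 25.5% of all genes were called higher and 50.9% in all, 3 of the 7 genes were called, and all 3 were higher: Crabp2, Crabp1 and Rarg. With at least a 2-fold change as well only Crabp2 stayed, where 11% of all genes did. Crabp2 rose 2.37-fold (log2 1.25, SE 0.18, adjusted p = 0.000199) and Crabp1 1.64-fold (log2 0.72, SE 0.23, adjusted p = 0.0245). The call of Crabp2 held in all 17 other fits (lowest change 1.16). That of Crabp1 was lost with halved counts (0.67) and without Auxin replicate 1 (0.60), Auxin replicate 3 (0.64), Re-introduction replicate 1 (0.56) or Re-introduction replicate 2 (0.67). This comparison and Auxin against Mock use the same Auxin libraries. Crabp1 made up 77.7% to 80.0% of the summed level of the carriers per exon length in Mock, 57.9% to 64.8% in Auxin and 50.2% to 54.6% in Re-introduction, with no overlap between groups. The means differed by -18.3 percentage points in Auxin against Mock and by -8.84 in Re-introduction against Auxin (exact permutation test, two-sided, p = 0.1 each, the smallest that 3 against 3 libraries allow, adjusted p = 0.106 over 18 such tests).

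**Figure D2:**
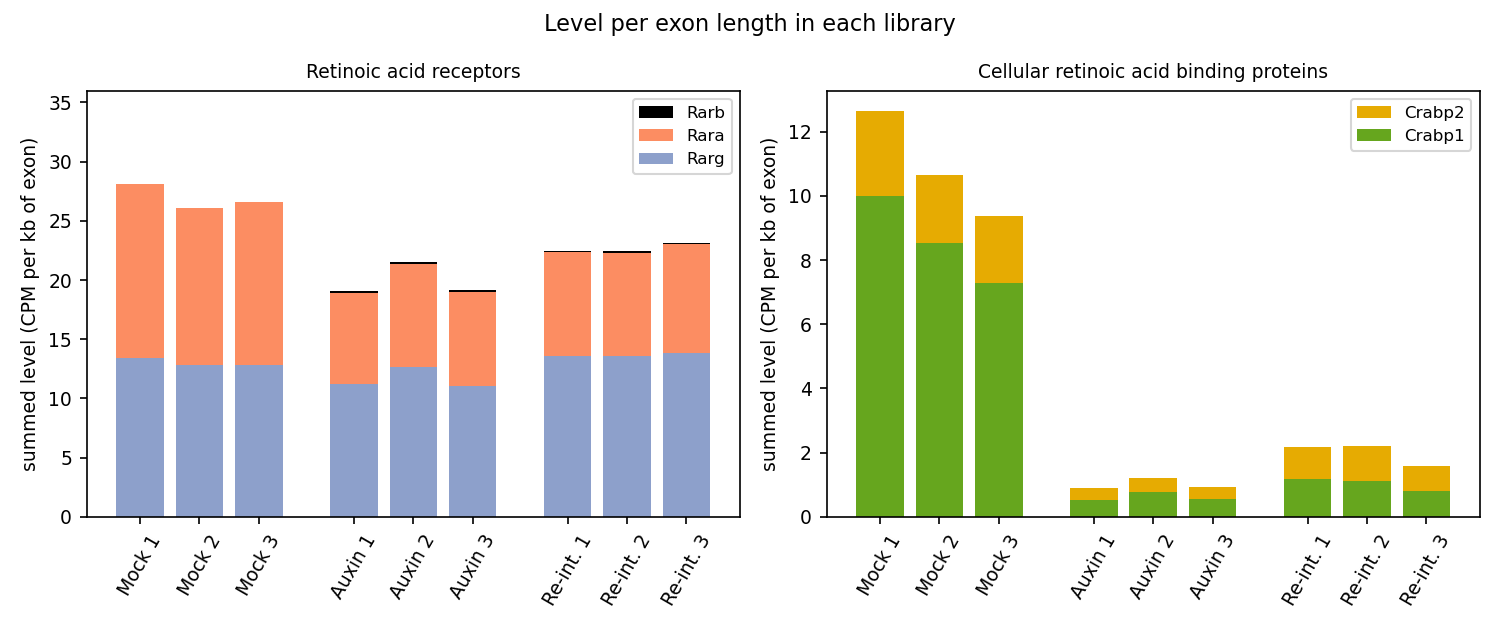
Stacked bars give the level per exon length (CPM per kilobase, linear axes from 0) of the receptors Rara, Rarb and Rarg, and of the carriers Crabp1 and Crabp2, in each of the 9 libraries. The summed carrier level is 9.39 to 12.6 in Mock and 0.901 to 1.21 in Auxin, and Rarb is a barely visible sliver on top of the receptor bars.

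Among the receptors, Rara fell and Rarg changed little. Rara (ENSMUSG00000037992.16, chr11:98927818-98974942) is the receptor expressed in most cell types. It had 64.0, 57.8 and 59.9 CPM in Mock, 33.4, 37.8 and 34.8 CPM in Auxin, and 38.4, 38.1 and 39.9 CPM in Re-introduction. Every Mock library was above every other library, and the Re-introduction libraries lay just above the Auxin libraries. Auxin against Mock gave -0.78 (log2, SE 0.062, adjusted p = 5.19e-07), 1.71-fold lower. In Re-introduction against Mock the change was -0.64 (SE 0.062, adjusted p = 4.37e-06). Rara did not pass in Re-introduction against Auxin (0.13, 95% interval -0.003 to 0.27, adjusted p = 0.0952). Without Auxin replicate 2 it was called higher there (0.17), and likewise with length and GC trends removed (0.20).

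Rarg (ENSMUSG00000001288.14, chr15:102234938-102257517), the receptor best known from early embryonic cells and skin, had 55.2, 52.8 and 52.8 CPM in Mock. It had 46.2, 52.0 and 45.4 CPM in Auxin and 55.9, 55.7 and 57.0 CPM in Re-introduction. Auxin replicate 2 lay next to the Mock libraries, and the other Auxin libraries lay lower. In Auxin against Mock it was called lower by a small margin (log2 -0.16, SE 0.059, adjusted p = 0.0288). That call was lost without a filter on low counts, with a filter at 1 CPM (-0.09), in a fit of only these groups (-0.13), without Auxin replicate 1 (-0.15), Auxin replicate 3 (-0.12) or Mock replicate 1 (-0.15), and the direction turned under library totals (0.05). Rarg rose by 0.23 in Re-introduction against Auxin (SE 0.060, adjusted p = 0.00744), which stayed called in all 17 other fits. In Re-introduction against Mock it did not pass (0.07, 95% interval -0.06 to 0.20, adjusted p = 0.318). It was called higher there under library totals (0.20) and with length and GC trends removed (0.14), and its direction turned with the length trend alone removed (-0.05).

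Rarb (ENSMUSG00000017491.8, chr14:16430842-16575472) is the receptor gene that retinoic acid itself induces through the element printed above. It was barely transcribed in Mock, with 10, 8 and 6 counts, or 0.0971, 0.0966 and 0.0839 CPM. In Auxin it had 38, 37 and 33 counts, or 0.463, 0.485 and 0.482 CPM. All Auxin libraries were above all Mock libraries, at a level that was still low. Rarb rose 5.05-fold (log2 2.34, SE 0.38, adjusted p = 0.000197), with a range of 2.27 to 2.55 over 16 other fits. In Re-introduction the libraries spread widely, with 0.226, 0.601 and 0.306 CPM, all above Mock. The change against Mock was 1.93 (SE 0.40, adjusted p = 0.00134) and fell to 1.50 without Re-introduction replicate 2, where it stayed called. Against Auxin it was -0.41 (95% interval -1.15 to 0.32, adjusted p = 0.333), which became -0.83 and was called without Re-introduction replicate 2 (adjusted p = 0.04).

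Per exon length, Rara and Rarg stood side by side in Mock, at 13.2 to 14.7 and 12.8 to 13.4 CPM per kilobase, and their libraries overlapped. In Auxin (mean ± SD, n = 3), Rarg was at 11.7 ± 0.88 and Rara at 8.10 ± 0.51, and in Re-introduction at 13.7 ± 0.17 and 8.89 ± 0.21, with no overlap. Rara made up 50.7% to 52.1% of the summed receptor level in Mock, 40.2% to 41.6% in Auxin and 38.8% to 39.5% in Re-introduction. The share does not depend on how libraries are scaled, and the mean was 10.8 percentage points lower in Auxin than in Mock (exact permutation p = 0.1, the smallest possible, adjusted p = 0.106). Rarb made up 0.104% to 0.122% in Mock, 0.745% to 0.828% in Auxin and 0.331% to 0.882% in Re-introduction, so the summed receptor level was set by Rara and Rarg. That sum was 26.9 ± 1.05 in Mock, 19.9 ± 1.36 in Auxin and 22.7 ± 0.36 CPM per kilobase in Re-introduction.

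**Figure D3:**
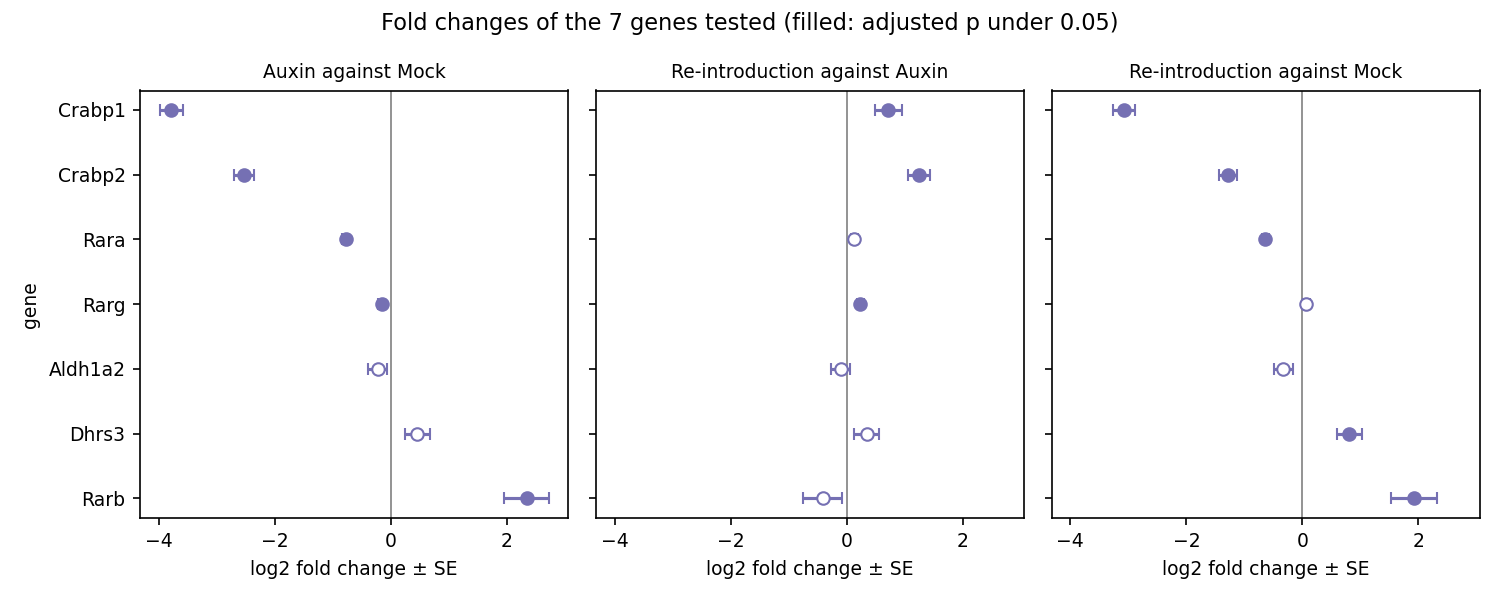
Log2 fold change ± SE of the 7 genes tested, in each of the 3 comparisons. Filled points passed an adjusted p of 0.05, and the panels share their axes, so that the falls of Crabp1 (-3.79) and Crabp2 (-2.53) and the rise of Rarb (2.34) in Auxin can be set against the smaller differences of the other genes.

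Aldh1a2 and Dhrs3 did not pass in Auxin against Mock. Aldh1a2 (ENSMUSG00000013584.5, chr9:71215789-71296243), which makes retinoic acid from retinal in the early embryo, had 1.67, 1.61 and 1.54 CPM in Mock. It had 1.37, 1.44 and 1.30 CPM in Auxin and 0.979, 1.51 and 1.38 CPM in Re-introduction. Its groups stood close, with Re-introduction replicate 1 lowest. It differed by -0.23 (log2) in Auxin against Mock (95% interval -0.58 to 0.13, adjusted p = 0.218), and -0.33 in Re-introduction against Mock (-0.69 to 0.03, adjusted p = 0.0944). Without Re-introduction replicate 2 the second of these was called lower (-0.44). In Re-introduction against Auxin the change was -0.10 (adjusted p = 0.645) and it turned to 0.06 without Re-introduction replicate 1.

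Dhrs3 (ENSMUSG00000066026.14, chr4:144892827-144928209) encodes an enzyme that reduces retinal back to retinol and so limits retinoic acid synthesis. It had 0.388, 0.374 and 0.392 CPM in Mock, 0.427, 0.512 and 0.657 CPM in Auxin, and 0.615, 0.735 and 0.686 CPM in Re-introduction. All Auxin and Re-introduction libraries were above all Mock libraries, while Auxin and Re-introduction overlapped. Dhrs3 was called in Re-introduction against Mock, 1.75-fold higher (log2 0.81, SE 0.22, adjusted p = 0.00676). In that comparison 5 of the 7 genes were called, with Rarb and Dhrs3 higher and Crabp1, Crabp2 and Rara lower, where 68.1% of all genes were called (34.7% higher and 33.4% lower). With at least a 2-fold change as well Rarb, Crabp1 and Crabp2 stayed, where 22.4% of all genes did. In Auxin against Mock the change of Dhrs3 was 0.46 (95% interval -0.03 to 0.95, adjusted p = 0.0825), and it was called without Auxin replicate 1 (0.59) and under library totals (0.67).

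Cyp26a1 (ENSMUSG00000024987.5, chr19:37697808-37701528), the main enzyme of retinoic acid breakdown in embryonic cells and one of its most inducible targets, had 7, 8 and 5 counts in Mock. It had 6, 4 and 2 counts in Auxin and 5, 6 and 12 counts in Re-introduction, or 0.029 to 0.147 CPM over all libraries. The groups overlapped. In a fit without the filter on low counts the log2 fold change was -0.56 in Auxin against Mock (95% interval -2.03 to 0.90, adjusted p = 0.537) and 1.09 in Re-introduction against Auxin (-0.35 to 2.54, adjusted p = 0.283). Stra6 (ENSMUSG00000032327.14, chr9:58063788-58153996), the membrane receptor for retinol uptake, had 4, 1 and 4 counts in the Mock libraries. Auxin libraries held 3, 5 and 0 counts of it, and Re-introduction libraries 7, 2 and 4, so the groups overlapped. Its change in Auxin against Mock was -0.02, with an interval of -2.23 to 2.19. By counting error alone, the summed counts of Cyp26a1 in Re-introduction and Auxin (23 and 12) gave a ratio of 2.11. The 95% interval was 1.01 to 4.65 (exact binomial, scaled for depth). It leaves out the spread between libraries and takes mates of a pair as independent counts, so it is too narrow. For Cyp26a1 the same interval was 0.30 to 1.46 in Auxin against Mock and 0.75 to 2.76 in Re-introduction against Mock. The fit across libraries detected no difference in Cyp26a1 or Stra6 at this depth, and the intervals leave room for changes of more than 2-fold in either direction for Stra6.

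Per exon length, the order in Mock was Rara, Rarg, Crabp1 (8.60 ± 1.35), Crabp2 (2.30 ± 0.32), Aldh1a2 (0.709 ± 0.029), Dhrs3 (0.131 ± 0.003), Cyp26a1 (0.0441 ± 0.0090), Rarb (0.0305 ± 0.0025) and Stra6 (0.0061 ± 0.0038 CPM per kilobase), and only Rara and Rarg overlapped as neighbours. In Auxin, Crabp1 (0.621 ± 0.14) overlapped with Aldh1a2 (0.605 ± 0.032), and Dhrs3 (0.182 ± 0.040) with Rarb (0.157 ± 0.0039). In Re-introduction, Crabp1 (1.03 ± 0.21) overlapped with Crabp2 (0.957 ± 0.16), and Rarb with Cyp26a1. None of the 9 genes shares exon sequence with another gene in the count tables, so that the lack of a strand setting in the counting does not touch them in this way. By Pearson correlation of log2 CPM over the 9 libraries, which fall into 3 groups, the nearest genes were Slc19a1 for Crabp1 (r = 0.998), Acap3 for Crabp2 (0.996), Zmiz2 for Rara (0.999) and Gtpbp1 for Rarg (0.995). A correlation of at least 0.99 was reached by 202 genes for Crabp1 and 355 for Rara.

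Another 47 genes of the pathway were listed by role, and 35 of them were tested. In Auxin against Mock 23 rose and 5 fell, where 38.4% and 34.8% of all genes did (median log2 fold change 0.39, against 0.05 over all genes). With the length trend removed it was 20 and 9. Of 14 genes known to respond to retinoic acid, 10 were tested, and 7 of these were called higher and 0 lower (median 1.93), beside 38.4% and 34.8% of all genes. Without Auxin replicate 2 it was 9 higher of 12 tested, and with length and GC trends removed 8 higher and 1 lower of 10. Leaving out a library loosens the filter on low counts, so more genes can be tested, here and in such fits below. A gene can also pass that filter through only the group where it is high. The response list includes Hox genes, and their rise in these libraries was known when it was drawn up. Meis2, a homeobox partner of Hox proteins, rose by 3.91 (SE 0.10), from 2.51 ± 0.40 to 37.8 ± 2.43 CPM. That rise was 3.16 to 4.12 over 17 other fits. Bhlhe40, a transcriptional repressor that acts on the circadian clock, rose by 2.89 (SE 0.076), and Hoxb4 by 2.80 (SE 0.27) to only 1.02 ± 0.080 CPM. Bhlhe40 shares exon sequence with a gene on the other strand.

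Of the 3 tested transport genes, 1 fell and 1 rose in Auxin against Mock, beside 34.8% and 38.4% of all genes. Without Auxin replicate 2, or without Mock replicate 2, only the fall was called. Rlbp1, a retinal carrier known from the eye, fell by 3.13 (SE 0.12), from 6.82 ± 0.60 to 0.778 ± 0.045 CPM, and its change after washout did not pass (0.23, adjusted p = 0.191). Fabp5, which can carry retinoic acid to another receptor, Ppard, rose by 1.08 in Re-introduction against Auxin (SE 0.11), to 13.9 ± 1.18 CPM.

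Of 12 tested synthesis and storage genes, 7 were called higher and 3 lower in Auxin against Mock. Of all genes 38.4% were called higher, 34.8% lower and 73.2% in all. Adh1, an alcohol dehydrogenase that oxidises retinol, rose by 4.11 (SE 0.23), from 0.184 ± 0.027 to 3.19 ± 0.73 CPM, and fell by 1.24 after washout. It shares exon sequence with another gene. Dhrs4 (-1.21), a retinal reductase with other substrates, and Adh5 (-0.98), best known for formaldehyde breakdown, were lower. Rdh11, a retinal reductase, went from 43.1 ± 0.28 CPM in Mock to 25.6 ± 2.02 in Auxin and 57.1 ± 3.27 in Re-introduction, a rise of 1.16 after washout (SE 0.067, adjusted p = 1.83e-07). Rdh14 fell by 0.94 in that comparison, and Tgm2, a transglutaminase that retinoic acid induces, rose by 0.62 (adjusted p = 0.0247). Of the 10 response genes tested, 1, Tgm2, was called higher there and 6 lower, beside 25.5% of all genes in each direction. Bhlhe40 (-1.09) and Hoxb4 (-1.05) were among those that fell. Without Re-introduction replicate 2 it was 0 higher and 4 lower of 12 tested. The call of Tgm2 was lost without Auxin replicate 1 (0.62), Auxin replicate 3 (0.47), Re-introduction replicate 2 (0.56) or Re-introduction replicate 3 (0.56), and it shares exon sequence with another gene.

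Of 9 tested receptor partners and co-regulators, 7 were called higher and 1 lower in Auxin, beside 38.4% and 34.8% of all genes. The balance changed with the length correction: with the length trend removed 3 were higher and 4 lower, and with length and GC trends removed 4 and 4. The median log2 fold change went from 0.32 to -0.08 and 0.04. Without Auxin replicate 2 it was 6 higher and 2 lower of 10 tested. Ncoa2, a coactivator of nuclear receptors, was at 30.8 ± 2.15 CPM in Mock, 114 ± 17.2 in Auxin and 115 ± 3.24 in Re-introduction, a difference of 1.90 in Re-introduction against Mock (SE 0.10, adjusted p = 5.84e-08). That difference was 1.13 with the length trend removed and 1.24 with length and GC trends removed. Ncor1, a corepressor that binds unliganded receptors, rose by 0.47 in Re-introduction against Auxin (SE 0.14, adjusted p = 0.0147), and by 0.28 without Auxin replicate 2. It shares exon sequence with other genes. Cdx1, a homeobox gene on the response list, was at 51.8 ± 5.21 CPM in Mock, 53.6 ± 4.48 in Auxin and 33.8 ± 1.53 in Re-introduction. It fell by 0.61 in Re-introduction against Mock (SE 0.083, adjusted p = 5.81e-05), and by 0.37 with length and GC trends removed. Of the 10 tested genes of its list, 6 were called higher and 1, Cdx1, lower there, beside 34.7% and 33.4% of all genes. Meis2 (3.94, and 3.18 to 4.07 over 17 other fits) and Bhlhe40 (1.80) were among those called higher. Of the 35 genes, 4 were called higher and 15 lower in Re-introduction against Auxin, where 25.5% of all genes were called in each direction. Without Auxin replicate 2 it was 6 higher and 19 lower of 38 tested. In Re-introduction against Mock 16 were called higher and 7 lower, a share of calls near the 68.1% of all genes (34.7% higher and 33.4% lower).

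**Figure D4:**
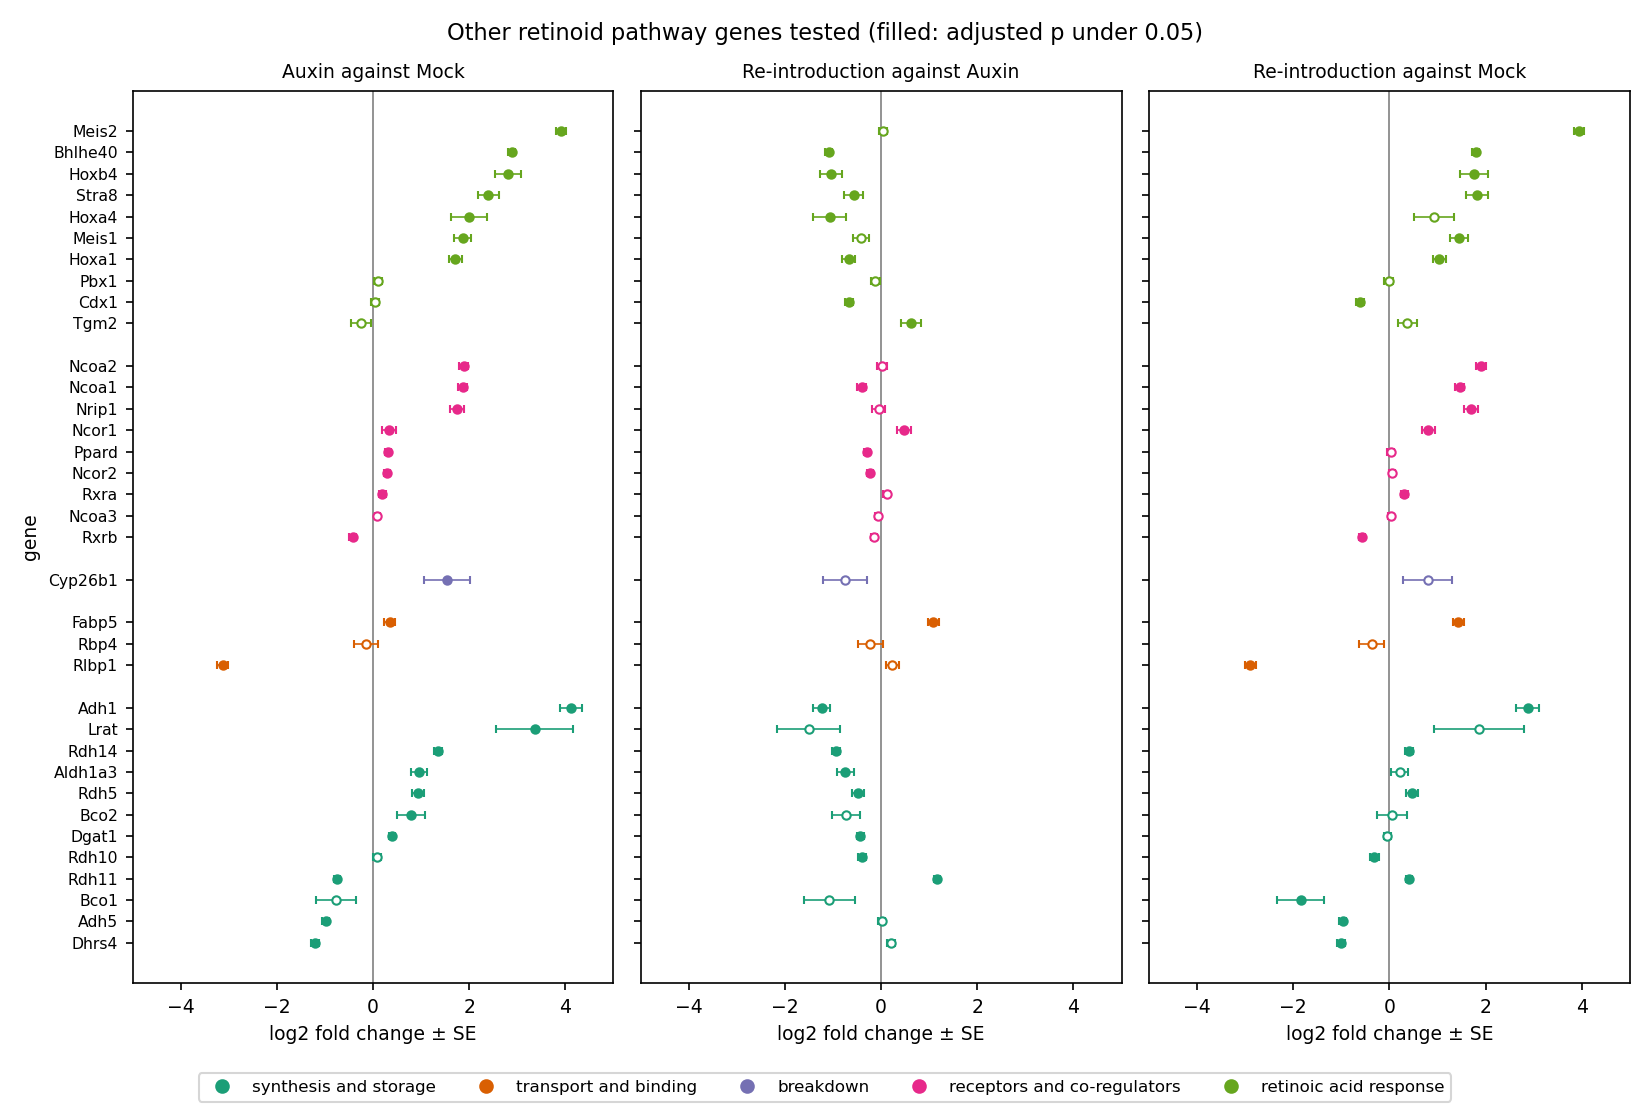
Log2 fold change ± SE of the 35 other retinoid pathway genes tested, by list (colour), in the 3 comparisons, with filled points at an adjusted p under 0.05. In Auxin against Mock, Meis2 (3.91) and Adh1 (4.11) lie furthest right and Rlbp1 (-3.13) furthest left.

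Markers of other cell types also moved between groups. In Auxin against Mock, 38.4% of all genes were called higher and 34.8% lower. Of 10 primitive endoderm markers, 8 rose and 1 fell in Auxin against Mock, and the summed level was 60.1 to 62.3 CPM in Mock, 85.8 to 89.8 in Auxin and 75.2 to 78.9 in Re-introduction. Of 7 mesoderm markers, 6 were tested, and 2 were called higher and 3 lower. Their summed level was 48.4 to 49.9 CPM in Mock, 27.8 to 30.5 in Auxin and 70.8 to 73.4 in Re-introduction. Most of it was Eomes, at 35.4 ± 0.78, 25.6 ± 1.14 and 66.9 ± 1.62 CPM in the same order. T fell from 9.82 ± 0.31 to 0.255 ± 0.13 CPM in Auxin and was at 1.36 ± 0.16 in Re-introduction. Of 7 trophoblast markers, 5 were tested, and 4 were called higher and 1 lower. Their summed level was 28.2 to 30.0 CPM in Mock, 83.2 to 92.2 in Auxin and 44.1 to 49.1 in Re-introduction, nearly all of it Tfap2c. The marker called lower was Cdx2, at 1.70 ± 0.26 CPM in Mock, 0.0825 ± 0.12 in Auxin and 0.784 ± 0.14 in Re-introduction. Of 8 neural progenitor markers, 5 were tested, and 1 was called higher and 3 lower. Their summed level was 113 to 123 CPM in Mock, 82.1 to 98.6 in Auxin and 81.0 to 83.4 in Re-introduction. Neurog2 had 0 counts in all libraries. Of 8 fibroblast markers, 7 stayed below 0.5 CPM in every library, and the summed level, 17.9 to 20.1 CPM in Mock 39.1 to 46.4 in Auxin and 37.4 to 38.9 in Re-introduction, was nearly all Thy1. Of the 3 fibroblast markers tested, 1 rose and 1 fell in Auxin against Mock. Hand1 is on both the mesoderm and the trophoblast list. The part of such cells in the changes of the retinoid genes was not tested.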

How the data were processed

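The authors deposited raw read counts per gene for 9 libraries. Per the file headers, featureCounts 2.0.6 counted exons by gene on an mm10 annotation, in paired-end mode, with no strand setting and without counting pairs once. The submitters' processing notes also name Trim Galore 0.6.10, Bowtie2 2.5.3 and SAMtools 1.20. Symbols were matched on the unversioned identifier (48058 of 48440 genes). Genes passing filterByExpr (20838) were scaled with TMM factors (0.905 to 1.08) and fitted with edgeR 4.0.16 (R 4.3.3), by quasi-likelihood with group as the only term over all 9 libraries. P-values were two-sided, adjusted by Benjamini-Hochberg over all genes tested, and called under 0.05. The fit was also run on simulated counts in which few genes changed, which does not test the scaling where most genes are called. Standard errors come from the F statistic and 95% intervals from the t distribution. Levels per exon length are CPM divided by exon kilobases. Alternatives included DESeq2 1.42.0, other scalings and filters, halved counts, offsets that remove length and GC trends (GC from GENCODE M21, 99.2% of genes), and leaving out each library.

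The genes and lists were chosen with earlier results of these data known, and the promoter search was added after the counts were seen. Each comparison names at most 4 other pathway genes per direction, those with the largest change among called genes whose higher group averaged 1 CPM or more and whose groups did not overlap. The shares of receptors and carriers were set up after the counts were seen, and they were not recomputed under the alternatives. T, Eomes, Cdx2, Thy1, Tfap2c, Neurog2, Utf1 and Dppa5a were named after their values were seen. A listed pathway gene is not reported here.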

Additional observations from a re-analysis of the deposited data

How the results depend on the processing

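Over the alternatives, 346 of 371 values of the 9 genes kept their direction and their side of the threshold, 12 lost a call, 10 gained one and 3 changed sign. The sign changes were Rarg in Auxin against Mock under library totals (0.0481), Rarg in Re-introduction against Mock with the length trend removed (-0.0452) and Aldh1a2 in Re-introduction against Auxin without Re-introduction replicate 1 (0.0639; -0.2096 to 0.0639 over the libraries left out), and none of these passed the test. The cause was not tested. Under library totals the median of all genes was 0.26 in Auxin against Mock and 0.16 in Re-introduction against Mock (0.05 and 0.03 with TMM). Requiring at least a 2-fold change as well left 6625, 2289 and 4664 genes and 3, 1 and 3 of the 9 genes, in the order of the report's comparisons (Auxin against Mock, Re-introduction against Auxin, Re-introduction against Mock). A filter at 1 CPM in 3 libraries dropped Rarb and Dhrs3, took away the call of Rarg, and left 3 called genes both in Auxin against Mock and in Re-introduction against Mock. Leaving out a library gave 14381 to 16236, 9142 to 11581 and 13106 to 13465 called genes, and 4 to 5, 2 to 4 and 5 to 6 of the 9. With the replicate number as a block, 14808, 9829 and 13639 genes and 4, 3 and 5 of the 9 were called. Rarg lost its call in Auxin against Mock there (-0.16, adjusted p = 0.0525). The numbers were not treated as pairs: deviations of same-numbered libraries correlated at -0.17 to 0.055, and Mock replicate 1 correlated best with Auxin replicate 2 (0.24). Of 407 values of the other named genes, 403 kept their call and 4, all of Tgm2, lost it. Depth limits Cyp26a1, Stra6 and Rarb most, with 2 to 12, 0 to 7 and 6 to 38 counts per library. Dhrs3 had 28 to 56, and in the Auxin libraries Crabp1 had 30 to 48 and Crabp2 36 to 43.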
